A study of Mus musculus with 4 samples.

Results

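The cells described here are the members of the 2 largest CD8 clonotypes in a library of tumor-infiltrating T cells from mice whose T cells lack VISTA, the immune checkpoint protein encoded by Vsir. For each cell, the T cell receptor alpha and beta contig with the most unique molecular identifiers (UMIs, tags that count each captured RNA molecule once) was taken, and cells with the same V segment and the same junction on both chains formed a clonotype. The clonotypes were selected on their number of cells among KO cells with at least 1 UMI of Cd8a or Cd8b1 and none of Cd4, termed here the CD8 gate. Of 3459 such cells with both chains, 291 formed the largest clonotype, clone 1 (8.41%, 95% exact binomial interval 7.51 to 9.39%), and 147 formed clone 2 (4.25%, 3.602 to 4.98%). Together they held 438 of the 20170 cells of the series that passed the filters. The third clonotype, just outside the choice, held 60 cells. Since cell number, receptor sequence and the Cd8 and Cd4 counts chose the members, these are given as descriptions.

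Mice of Vsir fl/fl CD4-Cre genotype (KO) and their Vsir fl/fl littermates without Cre (WT) carried B16 melanoma, received a peptide vaccine on day 3 and 100 µg of anti-CTLA-4 antibody on days 4 and 8, and were 6 to 8 weeks old. CD4-Cre deletes floxed genes in alpha-beta T cells, both CD4+ and CD8+, and not in other tumor cells. On day 18 after treatment, tumors were pooled by genotype (5 to 6 mice according to the methods, 6 to 8 tumors according to a legend), CD4+ and CD8+ cells were sorted, and 1 gene expression library and 1 receptor library were made per genotype. Both clones and all cells they are compared with come from the single KO pool. There is therefore no replicate, no test is given, and a clone and the mouse or mice it came from cannot be told apart. All intervals cover counting error only. The KO library held 10085 barcodes with 59916814 UMIs and the WT library 10337 with 72098984, and 145 barcodes occurred in both, among them 2 of clone 1 and 4 of clone 2.

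Each alpha-beta T cell assembles its receptor by joining V and J segments (and a D segment in the beta chain), with bases added and lost at the joints, so cells that share both junctions nearly always descend from 1 ancestor. The junction encodes the loop that contacts peptide and MHC. A T cell that meets its antigen divides, gains killing molecules such as granzymes, and loses the genes of resting and recirculating cells. Under lasting stimulation in tumors, CD8+ T cells often acquire inhibitory receptors such as PD-1, encoded by Pdcd1.

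The 4 junctions that define the clones are shown first, because the beta chains were alike. Clone 1 joined TRAV16N to TRAJ17 and TRBV13-1 to TRBJ2-7, and clone 2 joined TRAV12D-3 to TRAJ45 and again TRBV13-1 to TRBJ2-7. The sequences run 5′ to 3′ on the coding strand as assembled from the KO cells. The TRB locus lies on mouse chromosome 6 and the TRA locus on chromosome 14. Capitals mark the bases at which the beta junctions differ from each other.
Clone 1 beta: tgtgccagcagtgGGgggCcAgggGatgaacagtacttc
Clone 2 beta: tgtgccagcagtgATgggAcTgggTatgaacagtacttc
Clone 1 alpha: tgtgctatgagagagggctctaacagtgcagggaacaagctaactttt
Clone 2 alpha: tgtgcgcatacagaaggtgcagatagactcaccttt

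The beta junctions both had 39 bases and differed at 5 of them, all between base 14 and base 25 counted from the first base of the junction, and at 3 of the 13 encoded amino acids. The contig annotation placed the last V base at position 16 and the first J base at position 21 in both, with 4 bases in between. The first differing base (14) thus lay in the stretch annotated as V and the last (25) in that annotated as J. Since both clones used the same V and J segments, these positions need not mark where germline bases end. The alpha junctions differed in length, with 48 bases in clone 1 and 36 in clone 2. By clonotype this beta combination was rare in both libraries. TRBV13-1 with TRBJ2-7 and a beta junction of 39 bases was found in 13.2% of KO CD8 cells with a clonotype but in 10 of 1656 KO CD8 clonotypes (0.604%, 0.290 to 1.11%), among them both clones. In WT it was found in 8 of 4159 CD8 cells (0.192%) and in 5 of 1148 CD8 clonotypes (0.436%). The KO share of cells follows from the choice of the largest clonotypes. Neither clonotype, and none of their 4 chains by V segment and junction bases, was found in the WT library. By amino acids, 1 WT beta chain, from a cell with Cd4 UMIs, had the junction of clone 2, and 2 others differed from it at 1 position.

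Beyond the gate, the full receptor of clone 1 occurred in 292 KO cells and that of clone 2 in 150, and 1 cell of each carried a Cd4 UMI. No cell of either clone had a second alpha contig (0 of 292, which by a limit of 3 counts, used here for every count of 0, allows a share of up to 1.03%, and 0 of 150, up to 2.00%), whereas 423 of 3021 KO CD8 cells of other clonotypes had one. A second beta contig was found in 9 of 292 cells of clone 1 (3.08%, 1.42 to 5.77%) and in 14 of 150 cells of clone 2 (9.33%, 5.197 to 15.2%), and in all of these cells it was the beta chain of the other clone. It was carried by 2 to 14 UMIs (median 4) in clone 1 and by 1 to 5 UMIs (median 1) in clone 2. Clone 1's own beta chain had a median of 22 UMIs a cell and clone 2's 39. Cells with the second beta held a median of 10315 UMIs in clone 1 and 8325 in clone 2, against 6411 and 7619 in cells without it. In KO CD8 cells of other clonotypes, 6.52% held a second beta contig, and none of these was a beta chain of either clone. Outside both clones, a contig of clone 1's beta chain was found in 9 other KO cells, none of which had a clonotype, and one of clone 2's in 4, of which 1 had a clonotype.

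The segment genes in the gene expression library add to this. Trbv13-1 had a UMI in all 291 cells of clone 1 and all 147 of clone 2, and Trav16n had one in 279 of 291 cells of clone 1 (95.9%) and in none of clone 2. Trav2, an alpha V segment for which no cell of clone 1 had a contig, was counted with 651 UMIs in 247 of 291 cells of clone 1 (84.9%, 80.2 to 88.8%), in 0 of 147 cells of clone 2 and in 1.31% of cells whose clonotype was seen once. Trbv19 was counted in 93 of 147 cells of clone 2 (63.3%, 54.9 to 71.1%), again without a contig, against 1 of 291 cells of clone 1. Trbc1, one of the 2 beta constant genes, was at 283 CPM (UMIs of the gene over all UMIs of the group, on the usual 1e+06 scale) in clone 1, 78.0 in clone 2 and 99.7 in clonotypes seen once. Trav2 in clone 1 and Trbv19 in clone 2 were thus counted in most cells with no matching contig. Reads of near-identical segments can be split or moved: Trav12d-3, the segment of clone 2's contig, was listed at 0 UMIs in every group, and Trav12-3 had 231 UMIs and Trav12n-3 had 31 in clone 2.

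**Figure D1:**
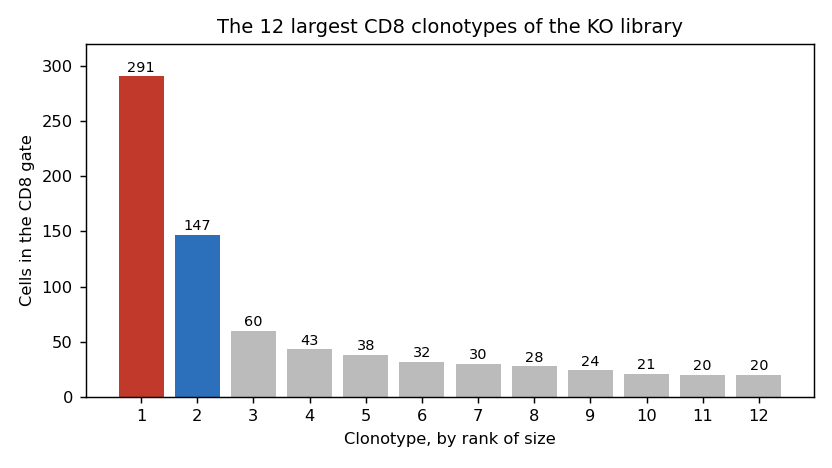
Number of cells in the CD8 gate (y axis) for each of the 12 KO clonotypes of at least 20 cells, by rank of size (x axis); red is clone 1, blue clone 2, grey the others. Clones 1 and 2 hold 291 and 147 cells, and the next 10 hold 60 down to 20.

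The reference for both clones was the set of 1302 KO CD8 clonotypes seen in 1 cell each. UMIs were summed over the cells of a group and given as CPM, with 2265145 UMIs in clone 1, 1346390 in clone 2 and 7612733 in clonotypes seen once. Median UMIs per cell were 6474, 7766 and 5005.5, median detected genes 2286, 2628 and 1890.5, and median mitochondrial shares 0.651%, 0.720% and 1.04%. Depth therefore moved with clone, and its part in the results below was not tested beyond the depth-matched values given. Ratios are log2 of (CPM + 5) over (CPM + 5), a scale that understates the change of low genes, and a gene entered a comparison when either group reached 20 CPM. A gene is called higher or lower at a ratio of at least 2-fold.

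As CD8+ T cells, both clones carried Cd3d (1324 CPM in clone 1 and 1349 in clone 2), Cd3e (1795 and 1895) and Cd3g (1986 and 2198), all chains of the receptor's signaling complex. Foxp3, the regulatory T cell factor, was at 2.21 CPM in clone 1 and 0 UMIs in clone 2. In clonotypes seen once it was at 33.1 CPM, with a UMI in 77 of 1302 cells, and Cd40lg, listed here for CD4 T cells, had one in 137. The gate thus may have let some CD4 or regulatory T cells into the reference. Their part in the genes called lower in the clones was not tested. Cd79a and Ms4a1 of B cells and Ncr1 and Klrb1b of NK cells were at 0 UMIs in both. Vsir was counted at 128 CPM in clone 1, 112 in clone 2 and 122 in clonotypes seen once, and at 111 CPM in the KO and 112 CPM in the WT CD8 gate. Where the deleted part of Vsir lies relative to the counted reads is not given in the sources used here, so these counts do not check the genotype. Of 5 sex-linked genes examined, the 4 on the Y chromosome were at 0 UMIs in clone 1, clone 2 and clonotypes seen once.

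In clone 1, all mitosis genes, 5 of 10 compared inhibitory receptors and the killing and chemokine genes Gzmb, Gzmk and Ccl4 were higher than in clonotypes seen once. Most genes of resting, recirculating cells, 11 of 21 immediate-early genes and the 6 other chemokines and cytokines that passed 2-fold were lower. Gzmb, the granule protease granzyme B, was at 3078 CPM against 762, and 96.9% of clone 1 cells carried a UMI. Tcf7, the transcription factor of naive and stem-like T cells, was at 8.83 CPM against 267. Of 6205 genes compared, 205 (3.3%) were at least 2-fold higher and 224 (3.61%) lower in clone 1, 429 (6.91%) in either direction. The median log2 ratio over all compared genes was 0.05, and the median absolute ratio 0.26.

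By the rule of the 10 highest ratios in clone 1, 7 were Ube2c, Birc5, Hist1h2ae, Ccna2, Ccnb2, Hist1h1b and Pclaf, all of which act in mitosis or DNA synthesis or encode replication-dependent histones. Ube2c, a ubiquitin-conjugating enzyme of mitotic exit, was at 384 CPM against 36.9 (log2 ratio 3.21, counting interval 3.04 to 3.39). Without dividing cells its ratio was 1.46, and the ratios of the other 6 ranged from -0.031 in Ccnb2 to 0.83 in Hist1h2ae, none of them past 2-fold. Dividing cells were called by their UMIs of the DNA replication and mitosis lists, which hold Ube2c and Birc5. A fall of such genes without these cells therefore follows from the call. Adgrg1, an adhesion receptor of cytotoxic lymphocytes, was at 58.3 CPM against 6.17 and was found in 91 cells of the clone. The other two, Hspb1 (83.4 CPM) and Cd209a (41.1 CPM), rested on few cells: 131 of the 189 Hspb1 UMIs and all 93 Cd209a UMIs lay in 1 cell each. Among the 10 lowest were Ccr7, Tcf7, Il7r and Dapl1 of naive and memory cells, the chemokines Ccl1 and Xcl1, and Ptgds, Pmel and Dct. The last 3 were low against a single reference cell each, since 803 of 807 Ptgds UMIs, 761 of 764 Pmel UMIs and 536 of 542 Dct UMIs of the clonotypes seen once lay in 1 cell.

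In clone 2, all mitosis genes, 8 of 11 compared inhibitory receptors and again Gzmb, Gzmk and Ccl4 were higher than in clonotypes seen once, and 11 of 13 naive and memory genes were lower. Havcr2, which encodes the inhibitory receptor TIM-3, was at 255 CPM in clone 2, 149 in clone 1 and 26.1 in clonotypes seen once. Of 6320 genes compared, 305 (4.83%) were at least 2-fold higher and 264 (4.18%) lower in clone 2, 569 (9%) in either direction, with a median log2 ratio of 0.06 over all of them and a median absolute ratio of 0.29. Both clones were set against the same 1302 cells, so their ratios are not independent of each other and are given side by side.

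By the same rule, the 10 highest genes in clone 2 were Xlr, Hist1h2ae, Havcr2, Osgin1, Adgrg1, Hist1h1b, Lyz2, Tgfbi and the unnamed loci Gm42047 and Gm36723. Xlr (ENSMUSG00000054626), a member of an X-linked lymphocyte-regulated family whose like copies could share reads, was at 93.6 CPM against 0.788 (log2 ratio 4.09, 3.76 to 4.36). Osgin1, an oxidative stress-induced growth inhibitor, was at 105 CPM against 9.33. Lyz2, the lysozyme gene of myeloid cells, was at 169 CPM against 23.5, but 212 of its 227 UMIs lay in 1 cell, and without each group's highest cell its log2 ratio fell to -0.49. Tgfbi likewise had 48 of 50 UMIs in 1 cell. Among the 10 lowest were Tcf7, Il7r, Klf2, Klf3, S1pr1 and Il18r1, together with the single-cell genes Ptgds, Pmel and Dct. Klf2, the factor that drives S1pr1 in recirculating T cells, was at 48.3 CPM against 1058 (log2 ratio -4.32, -4.65 to -3.997).

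**Figure D2:**
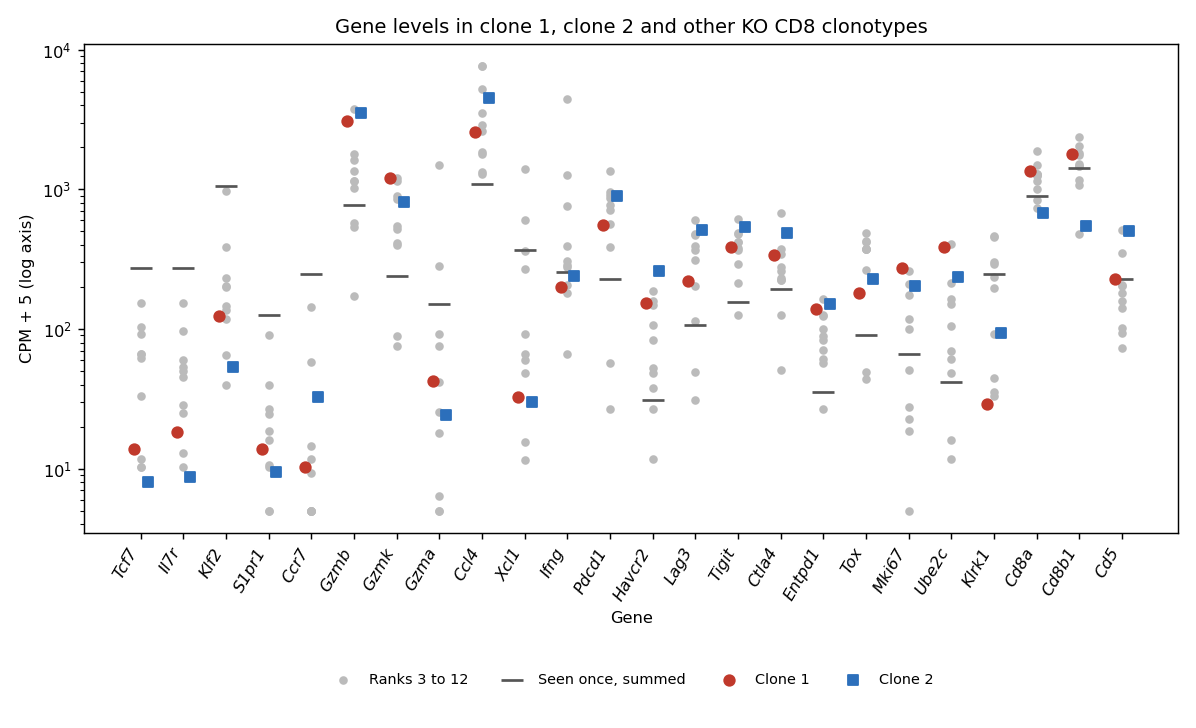
CPM + 5 on a log axis (y) for 24 genes (x) in clone 1 (red circles), clone 2 (blue squares), each of the 10 clonotypes ranked 3 to 12 (grey points) and the summed clonotypes seen once (dark bars). Tcf7, Il7r and S1pr1 lie far below the bar in both clones, Gzmb and Havcr2 above it, and Cd8b1 of clone 2 (537 CPM) lies below clone 1 (1795 CPM).

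Genes of naive and memory cells were low in nearly the whole list. Of its 14 genes, 13 could be compared with clonotypes seen once, 11 were lower in clone 1 and 11 in clone 2, none was higher, and the median log2 ratio was -2.99 and -2.93. Il7r, the receptor for the survival cytokine IL-7, was at 13.2 CPM in clone 1 and 3.71 in clone 2 against 266 (log2 ratios -3.89 and -4.96). S1pr1, which guides exit from tissue, was at 8.83 and 4.46 CPM against 121. Ccr7, the lymph node homing receptor, was at 5.30 and 27.5 CPM against 243, and 36 of the 37 Ccr7 UMIs of clone 2 lay in 1 cell.

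Shares of cells depend on depth, so 2000 UMIs were drawn at random from every cell that had as many, which is called thinning here. Tcf7 then had a UMI in 3 of 288 cells of clone 1 (1.04%, 0.215 to 3.01%; 4.81% unthinned) and 1 of 147 of clone 2 (0.680%, 0.0172 to 3.73%; 1.36% unthinned), against 37.3% of 1263 cells seen once (57.6% unthinned). The background for Tcf7 was read from 100 KO cells with at least 5 UMIs of Siglech, a plasmacytoid dendritic cell gene, and none of Cd3e, whose median depth was 8707 UMIs. Tcf7 was found in 0 of 99 of them after thinning, which allows a share of up to 3.03% by the limit of 3 counts, so that the thinned shares in both clones cannot be told apart from background. Unthinned, it was found in 0 of the 100, which allows up to 3.00%. The unthinned shares of 4.81% in clone 1, at a median depth of 6474 UMIs, and 1.36% in clone 2 are given without intervals. No difference of either clone from background is therefore read from them. Cells with both Tcf7 and Pdcd1 numbered 0 of 288 in clone 1, 1 of 147 in clone 2 and 60 of 1263 among cells seen once.

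Several inhibitory receptors were higher in both clones. Of 13 genes, 10 could be compared in clone 1, with 5 higher and none lower (median log2 ratio 0.92), and 11 in clone 2, with 8 higher and none lower (median 1.77). A narrower reference left out cells seen once that had a UMI of naive-cell genes. Against it, Pdcd1 (0.82), Lag3 (0.62) and Tigit (0.94) fell below 2-fold in clone 1, whereas Havcr2 (1.72) and Entpd1 (1.46) did not. In clone 2, Pdcd1, Lag3 and Tigit stayed past 2-fold (1.51, 1.84 and 1.41). Pdcd1 was at 554 CPM in clone 1 and 898 in clone 2 against 223, and 57.6% and 77.6% of thinned cells had a UMI against 20.8% of cells seen once and 1.01% of the cells with Siglech (unthinned 84.2%, 98.0%, 34.02% and 3%). Lag3, an inhibitory receptor that binds MHC class II, was at 215 and 504 CPM against 101.5. Tigit, which binds the ligand also used by CD226, was at 383 and 531 CPM against 152. Entpd1, which encodes the ectonucleotidase CD39, was at 133 and 146 CPM against 30.6. Ctla4, the target of the antibody given to these mice, was at 334 and 483 CPM against 189, which passed 2-fold in clone 2 only (log2 ratios 0.80 and 1.33). TIM-3 and PD-1 transcripts were found together in 17.4% of thinned cells of clone 1, 21.8% of clone 2 and 1.66% of cells seen once.

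Among transcription factors of CD8 fate, 12 of 13 genes could be compared. Prdm1, which encodes BLIMP-1 of effector cells, was higher in both clones (64.5 and 85.4 CPM against 22.7), as was Tox, the factor of chronically stimulated T cells (177 and 223 against 86.2). In clone 1 Tox lay at the threshold, with a log2 ratio of 1.001, and of 0.97 without each group's highest cell. Eomes was at 137 CPM in clone 1 and 94.3 in clone 2 against 63.1, past 2-fold in clone 1. Against the narrower reference, clone 1 fell below 2-fold for Prdm1 (0.89), Tox (0.81) and Eomes (0.98), and clone 2 was at 1.27 for Prdm1 and 1.13 for Tox. Ikzf2 was lower in both (26.5 and 26.0 against 94.1). The list's median was 0.41 in both comparisons, with 3 genes higher and 1 lower in clone 1, and 2 higher and 1 lower in clone 2.

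The granzyme and killing list was split within itself. Gzmb and Gzmk, a granzyme of tissue and early effector cells, were higher in both clones: Gzmk was at 1190.2 CPM in clone 1 and 799.9 in clone 2 against 236, in 89.2% and 81.0% of thinned cells against 25.02%. Gzma was lower, at 37.5 and 19.3 CPM against 147, as were Gzmc (3.09 and 4.46 against 41.2, with 162 of the 314 reference UMIs in 1 cell) and Gzmm. Over the 10 clonotypes ranked 3 to 12, Gzma ran from 0 to 1496 CPM with a median of 28.4, so both clones lay inside that range. Prf1, which encodes the pore protein perforin, was at 176 and 298 CPM against 105.6 and passed 2-fold in clone 2. Of 11 genes compared out of 15, 2 were higher and 3 lower in clone 1 (median 0.02), and 3 higher and 3 lower in clone 2 (median 0.46).

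Cytokines and chemokines moved in both directions as well. Ccl4, a chemokine that attracts T cells and monocytes, was higher at 2570.2 CPM in clone 1 and 4531 in clone 2 against 1078. Xcl1, which attracts cross-presenting dendritic cells, was lower at 27.8 and 25.3 CPM against 360.3, and Tnfsf14 was at 3.53 and 3.71 against 30.2. Ifng differed little from clonotypes seen once, at 196 and 234 CPM against 249.8 (log2 ratios -0.34 and -0.09). Against clonotypes of 2 to 9 cells its ratios were -0.92 and -0.67. Against those ranked 3 to 12 with equal weight they were -2.02 and -1.77, Ifng ranging from 61.3 to 4410 CPM over those 10. Of 11 genes compared out of 17, 1 was higher and 6 were lower in clone 1 (median -1.20), and 3 were higher and 4 lower in clone 2 (median -0.85).

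Immediate-early genes, which are switched on within the first hour of receptor signaling, were low. Of 23 genes 21 could be compared, 11 were lower and none higher in each clone, and the medians were -1.09 and -1.04. Fos, a subunit of AP-1, was at 151 CPM in clone 1 and 146 in clone 2 against 699.9, and Nfkbia, the inhibitor of NF-kB, at 294 and 257 against 1159.5. Myc was at 31.8 and 21.5 CPM against 124. Immediate-early genes can also respond to tissue digestion, whose part was not tested. Of 14 genes of the receptor complex and its kinases, all were compared, and 14 lay above the reference in clone 1 (median 0.34) and 11 above and 3 below it in clone 2 (median 0.23). None passed 2-fold in clone 1, and Cd5 and Cd6, scavenger-receptor family members that dampen receptor signaling, did in clone 2.

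Mitosis genes were high over their full list and DNA replication genes in part. All 20 mitosis genes were higher in clone 1 (median log2 ratio 2.15) and all 20 in clone 2 (1.94). Of 20 DNA replication genes, 8 were higher in clone 1 and 10 in clone 2 (medians 0.94 and 0.98), among them Rrm2, a subunit of ribonucleotide reductase (162 and 213 CPM against 33.5). Mki67, the proliferation marker, was at 269 and 197 CPM against 61.0. With dividing cells defined as those with at least 3 UMIs of these 2 lists after thinning, 46.9% of clone 1 (41.0 to 52.8%) and 46.3% of clone 2 (38.0 to 54.7%) were called dividing, against 25.4% of cells seen once (23.0 to 27.9%), 36.9% of cells of clonotypes of 2 to 9 cells and 42.6% of those ranked 3 to 12. The call is a wide one, and 6.06% of the cells with Siglech passed it too. In thinned cells, Mki67 itself had a UMI in 16.3% of clone 1, 19.7% of clone 2 and 4.43% of cells seen once. Within clone 1, Pdcd1 was at 476 CPM in the 135 dividing and 662 in the 153 other thinned cells, and Gzmb at 2952 and 3265. In clone 2 Pdcd1 was at 810.4 and 1007 CPM and Gzmb at 2995 and 4123, so in both clones both levels were lower in dividing cells, whereas in cells seen once Pdcd1 was at 271 CPM in dividing and 201 in other cells.

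Of the remaining lists, NK-type receptors were mostly lower in clone 1, and the others moved less or in part. Of 14 NK-type receptor genes 7 were compared, with 6 lower in clone 1 (median -2.68) and 3 in clone 2 (median -0.98). Klrk1, which encodes the activating receptor NKG2D, was at 23.8 and 88.4 CPM against 244. Of 9 compared genes of circulating effector cells (11 listed), 1 was higher and 3 were lower in each clone (medians -0.15 and -0.71), Itgb7 being at 54.2 CPM in clone 2 against 377 and Klrg1, a marker of late effector cells, at 143 and 138 CPM against 37.2. Among chemokine receptors and residency genes, 12 of 14 were compared, 2 were higher and 4 lower in clone 1 (median 0.10), and 2 higher and 3 lower in clone 2 (median -0.33). Itgae, the integrin of tissue-resident cells also known as CD103, had 6 UMIs in clone 1 and 0 in clone 2 against 445 in clonotypes seen once, at least 26.2-fold lower in clone 2 by the limit of 3 counts. The low level was shared by the 10 clonotypes ranked 3 to 12, where Itgae ran from 0 to 6.75 CPM. Against these with equal weight its log2 ratio was 0.33 in clone 1 and -0.28 in clone 2. Of 10 costimulatory receptors, 3 were lower in each clone (medians -0.66 and -0.32). Tnfrsf4, which encodes OX40, was lower in both, at 14.1 and 49.02 CPM against 110.3, and Cd226 passed 2-fold in clone 2 only, at 93.6 and 22.3 CPM against 168.

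Glycolysis and hypoxia genes were shifted up with few past 2-fold, 0 of 15 in clone 1 and 4 of 15 in clone 2 (medians 0.60 and 0.71, 18 listed), Aldoa being at 1646 and 1826 CPM against 858. Ribosomal protein genes were shifted down, 0 of 88 past 2-fold in either clone (medians -0.43 and -0.45, 96 listed). Interferon-stimulated genes held medians of 0.15 and -0.19 over 21 of 24 genes, with 1 lower in clone 1 and 3 in clone 2. Heat shock genes held medians of -0.05 and 0.10, and none of the 11 and 12 compared passed 2-fold. In the BCL-2 family, 10 of 12 were compared, with 1 lower in clone 1, Bcl2 itself (57.8 CPM against 133), and none past 2-fold in clone 2 (medians 0.04 and 0.30).

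**Figure D3:**
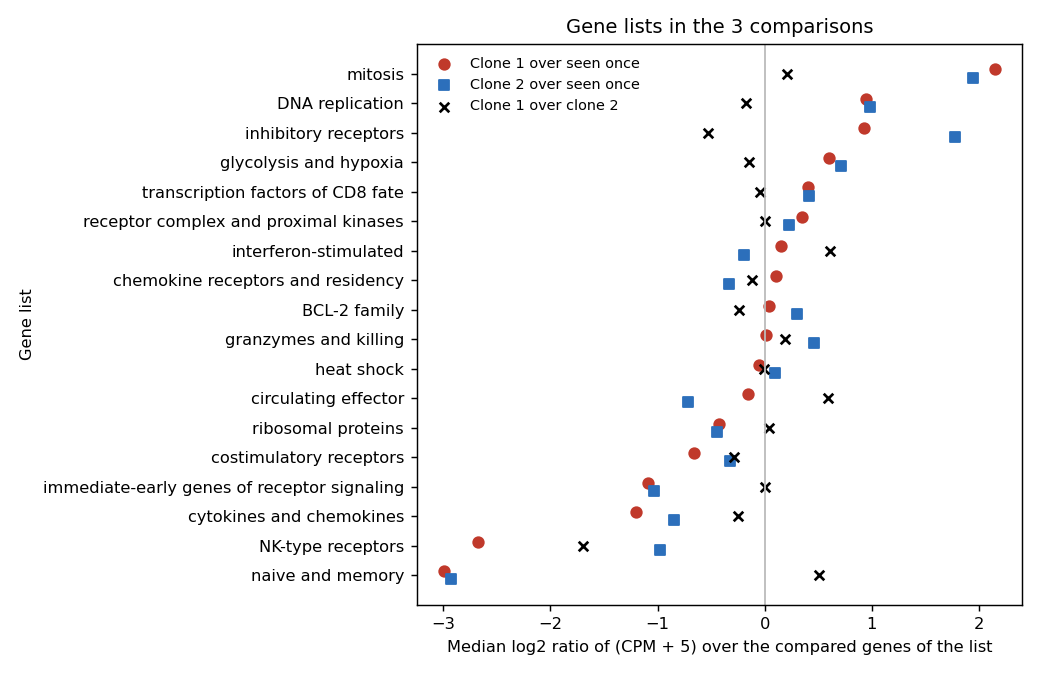
Median log2 ratio of (CPM + 5) (x axis) over the compared genes of each list (y axis) for clone 1 over clonotypes seen once (red circles), clone 2 over the same (blue squares) and clone 1 over clone 2 (black crosses). Mitosis is at 2.15 and 1.94 and naive and memory at -2.99 and -2.93 in the first 2, which share their reference.

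How far the differences belong to these clones, and not to expanded clonotypes at large, was examined with other references. Against clonotypes of 2 to 9 cells, 156 genes were at least 2-fold apart in clone 1 (34 higher, 122 lower) and 221 in clone 2 (70 higher, 151 lower). Against the clonotypes ranked 3 to 12, each with equal weight, the counts were 154 and 195. Of the 6240 genes of this comparison, clone 1 lay above all 10 other large clonotypes in 138 (2.21%) and below all 10 in 49 (0.785%), and clone 2 above in 208 (3.33%) and below in 71 (1.14%). Tcf7, Il7r and Klf2 were also lower in the 10 summed clonotypes than in those seen once (36.04, 34.8 and 164 CPM), by less than in the clones. Tcf7 ranged from 5.23 to 149 CPM over the 10, with clone 1 eighth of the 12 and clone 2 the lowest, and relative to the 10 with equal weight its log2 ratio was -2.14 in clone 1 and -2.93 in clone 2. Il7r, lowest of the 12 in clone 2, was at -1.55 and -2.62 on the same scale, and Klf2 at -1.01 and -2.23. Ccr7 was at -1.35 in clone 1, and in clone 2, where 36 of 37 UMIs lay in 1 cell, it was no longer lower (log2 ratio 0.31). For Pdcd1, Lag3, Tigit and Ctla4 both clones lay inside the range, Pdcd1 running from 21.9 to 1342 CPM over the 10. Havcr2 of clone 2, at 255 CPM, lay above the 10, which ran from 6.75 to 181 CPM. The summed inhibitory receptor list put clone 1 eighth and clone 2 second among the 12. Relative to these clonotypes with equal weight, the log2 ratios of clone 1 turned to -0.24 for Pdcd1, -0.46 for Lag3, -0.80 for Tox and -0.47 for Ccl4. Tox of clone 2 turned to -0.48. Gzmb was exceeded only by the clonotype ranked sixth (3765 CPM), and Nfkbia was lowest of the 12 in clone 2.

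Clone 1 and clone 2 were then compared with each other. They differed less than either did from clonotypes seen once, with 47 of 6074 genes (0.774%) at least 2-fold higher in clone 1 and 57 (0.938%) higher in clone 2, 104 (1.71%) in all, a median log2 ratio of -0.01 and a median absolute ratio of 0.18. All 5 compared NK-type receptors, 2 of 11 inhibitory receptors (Lag3 and Cd244a), Cd5 and Tnfrsf9 were higher in clone 2, and Cd8a, Cd8b1, Cd226 and Itgb7 in clone 1. Some genes were carried by many cells of 1 clone and by next to none of the other.

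Xlr was the clearest of these. It had 126 UMIs in 71 of 147 cells of clone 2, at most 5 in a cell, and 0 UMIs in 291 cells of clone 1, so that it was at least 70.7-fold higher in clone 2 by the limit of 3 counts. It had 0 UMIs in each of the 10 clonotypes ranked 3 to 12 and 6 UMIs in 6 of 1302 cells seen once. After thinning, 21 of 147 cells of clone 2 had a UMI (14.3%, 9.07 to 21.0%) against 0 of 288 of clone 1, which allows up to 1.04% by the limit of 3 counts, and 0 of 99 cells with Siglech. 2900026A02Rik, an unnamed locus, was found in 62 cells of clone 2 and 16 of clone 1 (55.7 and 7.95 CPM, 9.98 in clonotypes seen once), but it was at 53.6, 52.3 and 45.2 CPM in the clonotypes ranked 3, 4 and 11. Capg, an actin-capping protein, was at 337 CPM in clone 2, 45.5 in clone 1 and 291 in clonotypes seen once, and ranged from 11.0 to 342 CPM over the 10 other large clonotypes. C1qtnf6 (41.6 against 3.97 CPM) and Nrgn (44.6 against 4.41 CPM), a calmodulin-binding protein, were also among the 10 genes highest in clone 2, and both were higher still in the clonotype ranked 3 (141 and 410.2 CPM).

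Other genes were higher in clone 1 than in clone 2. Gm43305 (ENSMUSG00000105703), an unnamed locus, had 380 UMIs in 96 of 291 cells of clone 1 and 4 UMIs in 4 cells of clone 2 (168 and 2.97 CPM, log2 ratio 4.44, 3.76 to 4.92). Without dividing cells this ratio was 2.34, and that of clone 1 over clonotypes seen once went from 1.61 to 0.033. It was highest of the 12 in clone 1 and lowest in clone 2, with 17.5 to 124 CPM between them. Lmo1, a LIM-domain transcription cofactor, had 87 UMIs in 70 cells of clone 1, at most 3 in a cell, against 7 UMIs in clone 2 (38.4 and 5.199 CPM, 4.203 in clonotypes seen once). Igkc, the antibody kappa constant gene, had 161 UMIs in 73 cells of clone 1, at most 12 in a cell, and 9 UMIs in 2 cells of clone 2, while Cd79a and Ms4a1 were at 0 UMIs in both clones. In other large clonotypes Igkc ranged from 0 to 130 CPM. Cells with Siglech carried Gm43305 (355 CPM) and Igkc (288 CPM) themselves and so gave no background for them. Nmral1, Wls, Tmem223, Gm42031, Gm30211, 1700097N02Rik and Cd209a completed the 10 genes highest in clone 1 over clone 2, at 25.6 to 50.8 CPM against at most 6.68 in clone 2. Among the 12 large clonotypes, clone 1 ranked 1 for Cd209a, whose UMIs lay in 1 cell, 2 for 1700097N02Rik and Gm42031, 4 for Gm30211, 5 for Tmem223 and Wls and 6 for Nmral1. Tmem223 was at 34.4 CPM in clone 1, 2.23 in clone 2, the lowest of the 12, and 50.8 in clonotypes seen once.

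**Figure D4:**
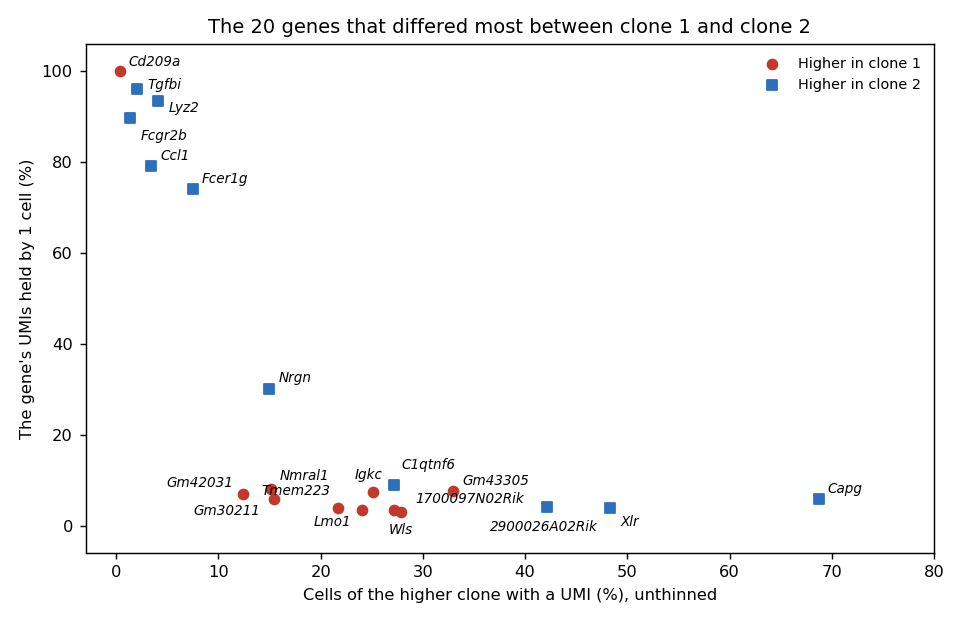
For the 10 genes highest and 10 lowest in clone 1 over clone 2, the percentage of cells of the higher clone with a UMI (x axis, unthinned) against the percentage of the gene's UMIs held by its 1 highest cell (y axis); red circles are higher in clone 1, blue squares in clone 2. Cd209a, Tgfbi, Lyz2, Fcgr2b, Ccl1 and Fcer1g have over 70% of their UMIs in 1 cell, while Xlr, Capg and Gm43305 are spread over many cells.

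Among lists with at least 5 compared genes, the NK-type receptors had the largest median ratio in size between the clones. All 5 genes compared were lower in clone 1 (median log2 ratio -1.70), Klrk1 at 23.8 against 88.4 CPM and Klrd1, its family member CD94, at 41.5 against 154. Of 11 inhibitory receptors 2 were lower in clone 1 and none higher (median -0.53), with Lag3 at 215 against 504 CPM. Of 9 costimulatory receptors, Cd226 was higher in clone 1 and Tnfrsf4 and Tnfrsf9 were lower. Tnfrsf9, which encodes 4-1BB, was at 57.8 against 258 CPM. Of 20 interferon-stimulated genes, 2 were higher in clone 1, Rtp4 (110.4 against 34.9 CPM) and Rsad2 (48.6 against 14.9), with a median of 0.61. Cd5 was at 223 against 495 CPM. Among the other lists, the transcription factor Maf was higher in clone 1 (37.1 against 14.1 CPM, list median -0.04), 2 of 6 naive and memory genes were higher and 1, Ccr7, lower (median 0.51), Itgb7 was higher of 6 circulating effector genes (median 0.60), Ccl1 lower of 7 cytokines (median -0.25), and Pmaip1, a pro-apoptotic gene, lower of 10 BCL-2 family genes (median -0.24). The ratios of Ccr7 and Ccl1 rested on few cells of clone 2: without each clone's highest cell, that of Ccr7 turned from -1.66 to 0.57, and 76 of the 96 Ccl1 UMIs lay in 1 cell, its ratio being 0.20 with cells of 3000 to 10000 UMIs. None of the 20 mitosis, 20 DNA replication, 21 immediate-early, 15 glycolysis, 12 heat shock, 9 granzyme, 9 chemokine receptor and 87 ribosomal protein genes compared passed 2-fold between the clones.

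The CD8 co-receptor itself differed between the clones. Cd8b1 was at 1795 CPM in clone 1 and 537 in clone 2, and Cd8a at 1354 and 667. The gate required at least 1 UMI of either, so these levels are given as descriptions. In thinned cells, Cd8b1 had a UMI in 95.5% of clone 1 (92.4 to 97.6%) and 69.4% of clone 2 (61.3 to 76.7%). It was found in 84.9% of cells seen once and 33.3% of the cells with Siglech. Unthinned, the shares were 99.3%, 97.3%, 92.8% and 58.0% in the same order. Whether the cells with Siglech made this RNA themselves was not tested, so they give no background for it. Of all cells with clone 2's receptor, 2 of 150 had no Cd8a or Cd8b1 UMI, and none of clone 1's. Clone 2 had the lowest Cd8a level of the 12 large clonotypes and the second lowest Cd8b1.

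**Figure D5:**
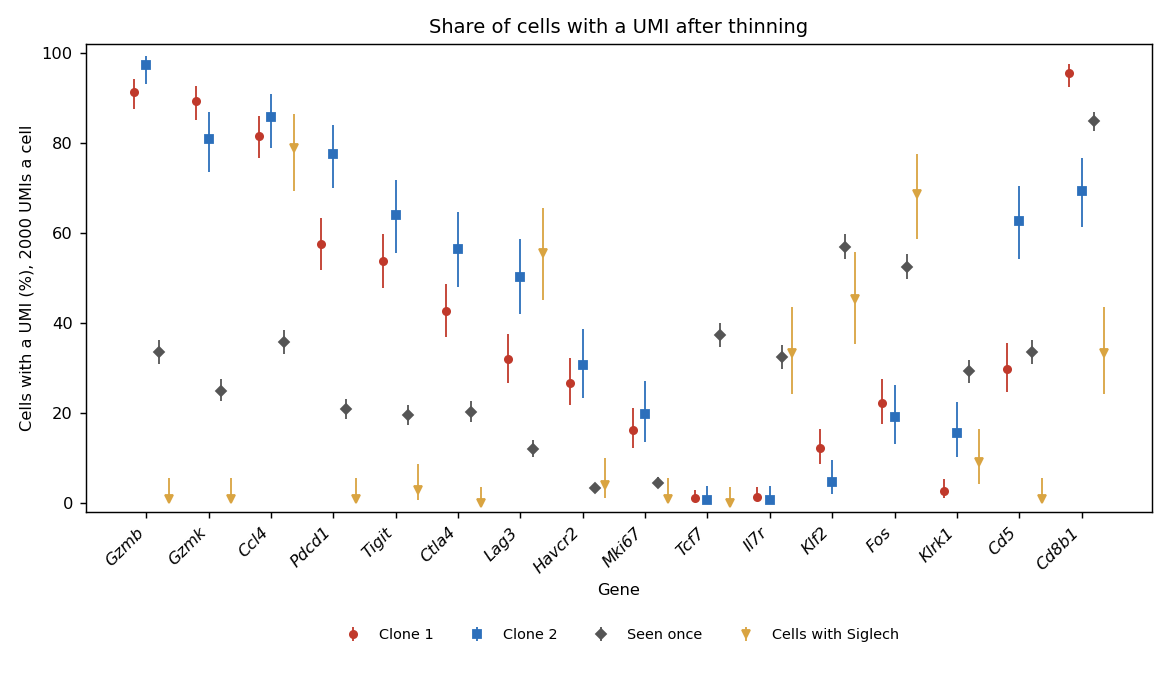
Percentage of thinned cells (2000 UMIs each) in which a gene was counted (y axis) for 16 genes (x axis) in clone 1, clone 2, cells seen once and cells with Siglech, with 95% exact binomial intervals as bars. Gzmb is at 91.3% and 97.3% in the clones against 33.5%, Tcf7 at 1.04% and 0.680% against 37.3%, and Pdcd1 and Cd5 are higher in clone 2 than in clone 1. Many cells with Siglech carry Ccl4 (78.8%), Fos (68.7%), Lag3 (55.6%), Klf2 (45.5%), Il7r (33.3%) and Cd8b1 (33.3%), so they give no background for these genes.

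Markers of other cell types were low in both clones and in places came from 1 cell. Of 8 macrophage or monocyte genes, 3 were compared with clonotypes seen once, 2 of them lower in clone 1 and 1 higher in clone 2. The list summed to 65.3 CPM in clone 1, 287 in clone 2 and 107 in clonotypes seen once, Cd68 being the most abundant in clone 1. The cell that held 212 of clone 2's Lyz2 UMIs had 22879 UMIs in all, including 312 of Cd74, 124 of H2-Aa, 83 of Fcer1g, 48 of Tgfbi and 26 of Fcgr2b beside 12 of Cd3e and 1 beta contig. The cell that held clone 1's 93 Cd209a UMIs had 19395 UMIs, with 563 of Cd74 and 210 of H2-Aa beside 19 of Cd3e. Of 6 dendritic cell genes, 4 were at 0 UMIs in clone 1 and 4 in clone 2. The 7 melanoma genes summed to 1.77 CPM in clone 1, 1.49 in clone 2 and 273 in clonotypes seen once, where 761 of 764 Pmel UMIs lay in 1 cell, and all 4 that were compared were lower in both clones. Of 6 B cell genes, Ighm and Igkc were compared, with 1 higher and 1 lower in clone 1 and both lower in clone 2.

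Other T cell and NK cell lists gave 5 of 5 compared regulatory T cell genes lower in clone 1 and 4 of 5 in clone 2 (summed 72.4 CPM in clone 1, 405 in clone 2 and 518 in clonotypes seen once), Capg being the most abundant in all 3. Of 3 compared CD4 T cell genes, 1, Cd40lg, was lower in each clone. Of 2 compared NK cell genes, 1 was higher in each, Eomes in clone 1 and Prf1 in clone 2, which CD8+ T cells also express. None of the 5 listed gamma-delta T cell genes reached 20 CPM in clone 1, clone 2 or clonotypes seen once, whereas the gamma V segment Trgv2, not in that list, was at 2.65, 31.2 and 68.4 CPM. The part of regulatory, other CD4 and gamma-delta T cells in the reference was not tested.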

How the data were processed

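Per the labels and the methods, the authors sorted CD4+ and CD8+ tumor-infiltrating T cells, made 1 gene expression and 1 receptor library per genotype, and processed the reads with Cell Ranger 5.0.0. The deposited gene expression values are UMI counts per gene and barcode, not normalized, and the deposited receptor files list assembled contigs with their UMI counts. The labels' extraction text names a 3′ technology, whereas their library descriptions give 5′ libraries and the methods a V(D)J kit. The methods give the mouse mm10 (GRCm38) reference. The authors' clusters were not used.

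Cells with at least 600 genes and at most 30% mitochondrial UMIs were kept. Counts were summed over the cells of a group and scaled to CPM, with 5 CPM added before log2 ratios, in Python 3.11.15 with numpy 2.4.6, scipy 1.17.1 and pandas 2.3.3. Since each genotype is 1 pooled library, no test was made. Ratio intervals came from exact Poisson limits of the counts and shares have exact binomial (Clopper-Pearson) limits, at 95%. The ratio step was checked on simulated data. Named genes were the 10 highest and 10 lowest ratios per comparison that kept their direction in the mean over cells, leaving out receptor and immunoglobulin segment and sex-linked genes, up to 4 genes of each list with the largest ratios against clonotypes seen once, and a fixed set of 15 genes. Klrg1, Maf, Cd244a, Cd74, H2-Aa, the marker genes given at 0 and the receptor segment genes fall outside this rule and were chosen after their values were seen. The members and the gene lists were chosen with earlier results of these data known. Cells were called dividing at 3 or more UMIs of the DNA replication and mitosis lists after thinning. No doublet caller was run. As an alternative, cells with 2 beta contigs or over 20000 UMIs were left out. Other alternatives changed the level filter, the added CPM, the reference and the depth. Some genes, and 1 alternative reference defined by them, are not reported here. Leaving out each gene's highest cell was added after seeing the data.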

Additional observations from a re-analysis of the deposited data

Results flagged for a closer look

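A second beta contig, which the assignment of clonotypes did not use, carried the beta chain of the other clone in 9 of the 292 cells of clone 1 and in 14 of the 150 cells of clone 2. These contigs were flagged because they are a signal outside the main measurement, above the limit that a count of 0 allows, whereas no second beta contig among 3021 KO CD8 cells of other clonotypes was a chain of either clone. Among KO cells outside both clones, a contig of clone 1's beta chain was found in 9 cells without a clonotype, and one of clone 2's in 4 cells, 1 of them with a clonotype. Of the 14 cells of clone 2, 0 had a UMI of Trav16n, the alpha V segment counted in 95.9% of clone 1 cells. Trav12-3, counted in 76.9% of clone 2 cells, was found in 0 of 291 cells of clone 1. The share was not compared with a test, and whether these barcodes held 2 cells or stray receptor RNA was not tested.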

How the results depend on the processing

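There was 1 pooled library per genotype, so neither clone has a replicate, its mouse cannot be told apart from the clone, and counting error is the only error measured. No paired analysis was possible because no group had more than 1 library. The number of genes at least 2-fold apart moved with the filter and the reference. For clone 1 against clonotypes seen once, it was 429, and became 237 with at least 50 CPM, 670 with no filter on level, 156 against clonotypes of 2 to 9 cells and 154 against those ranked 3 to 12 with equal weights. For clone 2 it was 569, and became 309, 873, 221 and 195 in the same order. Between the clones it was 104, and became 42 with at least 50 CPM, 206 with no filter and 256 without dividing cells. With cells of 3000 to 10000 UMIs it was 416 in clone 1 (287 of them among the 429), 569 in clone 2 (397 among the first 569) and 156 between the clones (68 among the 104), and without each gene's highest cell 410, 546 and 87 (387, 494 and 77 shared). The cause of the changes below was not tested beyond what each setting removes. Against clonotypes ranked 3 to 12, log2 ratios of clone 1 turned to -0.47 for Ccl4, -0.012 for Eomes, -0.46 for Lag3, -0.24 for Pdcd1, -0.30 for Rgs16, -0.80 for Tox, 0.012 for Dct, 0.35 for Foxp3, 0.29 for Gzmc, 0.33 for Itgae, 0.012 for Mlana and 0.98 for Slfn5, and those of clone 2 to 0.31 for Ccr7, 0.52 for Gzmc, 0.027 for Ighm, 0.14 for Slfn5, 0.26 for Tnfrsf4 and -0.48 for Tox. All of these had passed 2-fold against clonotypes seen once. Some genes that had not passed it turned as well, for example Prf1 (-0.61) and Itgb7 (0.29) in clone 1 and Eomes (-0.53) in clone 2. Prf1 of clone 2 fell from 1.45 to 0.13. Without dividing cells, ratios turned in clone 1 to -0.031 for Ccnb2, -0.25 for Cdc6, -0.0015 for Mki67 and -0.14 for Rrm2, and in clone 2 to -0.16 for Ccna2, -0.13 for Ccnb2, -0.25 for Cdc6 and -0.31 for the median of the DNA replication list. Since UMIs of the DNA replication and mitosis lists made the call, a fall of their genes follows from it. With cells of 3000 to 10000 UMIs, Dct turned to 0.14 and Mlana to 0.20 in clone 1, Lyz2 to -1.65 and Tgfbi to -0.47 in clone 2, and between the clones Ccl1 to 0.20, Ccr7 to 0.91, Fcer1g to 1.17, Lyz2 to 0.019 and Tgfbi to 0.20. Without likely doublets, Dct turned to 0.10 and Mlana to 0.14 in clone 1, Lyz2 to -0.47 and Tgfbi to -0.10 in clone 2, and Tgfbi to 0.23 between the clones. Without each gene's highest cell, Lyz2 turned to -0.49 and Tgfbi to -0.020 in clone 2, and Ccr7 to 0.57 between the clones.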
